A study of Drosophila melanogaster with 6 samples.

Results

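The nuclear-encoded subunits of the respiratory chain and of ATP synthase were followed in Drosophila intestinal progenitor cells, the stem cells and undifferentiated daughters that renew the midgut epithelium. Members were chosen by gene symbol alone, from the names that mark subunits of complex I (ND-), complex II (SdhA to SdhD), complex III (UQCR-, Cyt-c1, RFeSP, ox), cytochrome c (Cyt-c-p), complex IV (COX with a digit) and complex V (ATPsyn, blw), without the genes of the mitochondrial genome. This gave 77 of the 13189 genes with at least 1 UMI, which is a tag that marks 1 captured RNA molecule. Of these, 66 are the first-named gene of a subunit and 11 are second copies whose symbol adds an L. Complex I had 37 members, complex II 4, complex III 10, cytochrome c 1, complex IV 10 and complex V 15.

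The study compared 3 control libraries, whose genotype label is wildtype, with 3 libraries labelled Pex5-depleted. Pex5 is the import receptor that brings enzymes into the peroxisome. Each replicate pooled 200 guts, from which about 40000 GFP-positive cells were sorted, with the gate set on flies carrying esg-driven GFP, a marker of progenitors. How and under which driver Pex5 was depleted is not stated in the labels, nor are sex and age. The Pex5 transcript was counted 8, 6 and 14 times in control replicates 1, 2 and 3 and 2, 21 and 41 times in the other group, with a log2 fold change of 1.24 (SE 0.87). It was therefore not lower as the label would have it, and every direction below rests on the label.

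The respiratory chain passes electrons from NADH, which enters at complex I, and from succinate, which enters at complex II, through ubiquinone, complex III and cytochrome c to oxygen at complex IV. Complexes I, III and IV pump protons, and complex V uses the gradient to make ATP. Complex II, succinate dehydrogenase, is also an enzyme of the citrate cycle and is encoded by nuclear genes alone, while the other complexes combine nuclear and mitochondrial gene products. In the fly midgut, pyruvate import into mitochondria is known to affect how often stem cells divide.

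One member passed the test. SdhB, the iron-sulfur subunit of complex II, was 2.60-fold higher in the libraries labelled Pex5-depleted (95% interval 1.84 to 3.69). The other 65 tested members did not pass. A negative log2 fold change, mostly small, was found in 40 of the 66, beside 2670 of all 5639 tested genes. By the quasi-likelihood test of edgeR, with p-values adjusted by Benjamini-Hochberg across 5639 genes, 1 of 66 members was called (1.52%), against 93 of all genes (1.65%), of which 47 were higher (0.833%) and 46 lower (0.816%). At an unadjusted p under 0.05 the members numbered 7 (10.6%), beside 745 of all genes (13.2%). The share of members called was thus near that of all genes by either rule.

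Depth was 2573882 to 4793433 UMIs a library, and 3 UMIs, the limit that a count of 0 allows, were 0.626 to 1.17 CPM (counts scaled to a common library size). These floors and the counts cover counting error only. The sorted cells carried esg at 29.6, 42.3 and 55.5 CPM in the controls and 47.2, 52.9 and 65.96 CPM in the other group, and 14 progenitor markers summed to 814 to 1073 CPM against 999 to 1445 CPM. Most of each progenitor sum was E(spl)malpha-BFM, at 347 to 426 CPM against 287 to 563 CPM, and E(spl)mbeta-HLH, at 185 to 276 CPM against 281 to 494 CPM. Of 13 tested progenitor markers 0 were called, as were 0 of 2 of visceral muscle. E(spl)mbeta-HLH and mira, at 5.70 to 20.8 CPM against 26.9 to 63.5 CPM, were the 2 progenitor markers without overlap, beside 9.72% of all tested genes higher without overlap. Of 18 tested enteroendocrine markers 3 were lower, and their summed level ran from 1227 to 3319 CPM in the controls and from 645 to 1123 CPM in the other group. Of 13 tested enterocyte markers 2 were higher, Jon25Biii and Amy-p, and 11 had a positive log2 fold change. The 2 negative ones were mex1 (-0.16) and Myo61F (-0.84), and Myo31DF was at 0.02. Enterocyte sums were 367 to 749 CPM against 904 to 1038 CPM, and ninaD had no UMI. Heat shock genes were higher in 5 of 16 tested, with sums of 16943 to 33125 CPM against 36211 to 45752 CPM. Visceral muscle sums were 73.4 to 76.1 CPM against 46.6 to 64.6 CPM. Most of each sum was Tm1, at 58.3 to 65.96 CPM in the controls and 33.8 to 47.8 CPM in the other group. Every other visceral muscle gene on the list had overlapping groups. Testis genes, none tested, summed to 4.01 to 5.97 CPM against 2.18 to 8.61 CPM, with Mst98Ca and can at 0. The part of these lists in the results below was not tested, and in sorted bulk samples fewer cells of a type and less RNA per cell cannot be told apart.

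The members were abundant. ATPsynC, which forms the membrane ring of complex V, had a mean level of 6653 CPM over the 6 libraries and ranked 39th of 13189 genes, and 48 of the 66 tested members were in the top 500. By complex the median level of tested members was 190 CPM for complex I, 117 CPM for complex II, 289 CPM for complex III, 651 CPM for complex IV and 667 CPM for complex V. Levels ran from 43.1 CPM for ND-49 to 854 CPM for ND-PDSW in complex I, from 60.3 CPM for SdhA to 256 CPM for SdhC in complex II, and from 38.0 CPM for ox to 670 CPM for RFeSP in complex III. In complex IV they ran from 214 CPM for COX8 to 1303 CPM for COX7A. These are counts of molecules tagged near the 3' end and were not divided by length, so they are not comparable with length-scaled measures. The members' spread between replicates was small. Their median coefficient of variation was 10.8% in the controls and 12.1% in the other group, against 31.3% and 29.0% for all tested genes, whose median level of 13.8 CPM was below the members' 254 CPM. At that precision 63 of 66 intervals of the log2 fold change lay within 1 of 0, a 2-fold change either way, and the exceptions were SdhB, ND-75 and SdhD.

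**Figure D1:**
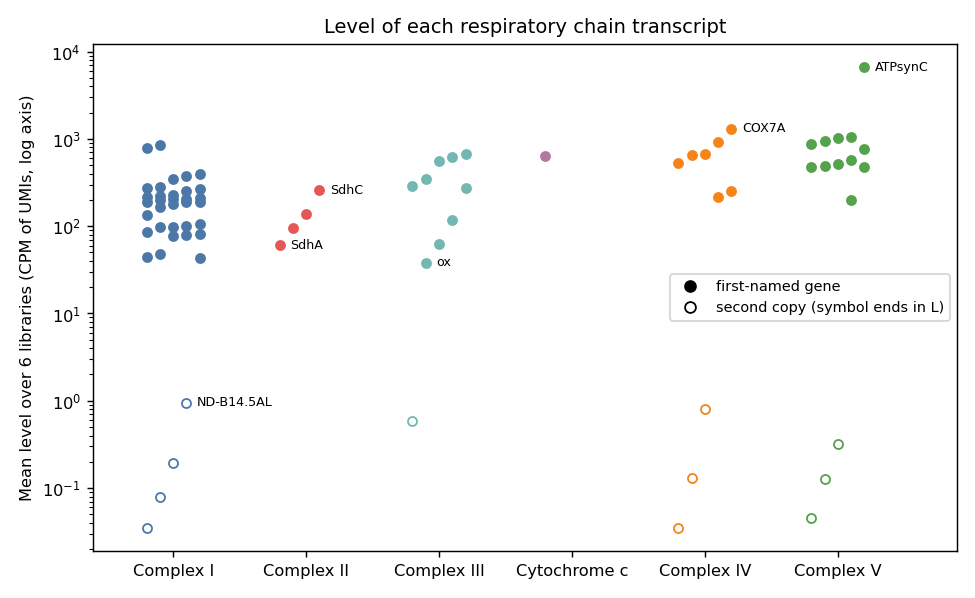
Mean level over the 6 libraries in CPM of UMIs (log axis) of each of the 77 members by complex. Filled points are the 66 first-named genes, which lie between 38.0 CPM for ox and 6653 CPM for ATPsynC, and open points are the 11 second copies, all below 1 CPM.

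The 11 second copies gave almost no counts. Together they gave 68 UMIs of the members' 622717, with 1 to 19 UMIs each over all 6 libraries, and none entered the test. The copy with the most, ND-B14.5AL, was counted 3, 5 and 3 times in the controls and 1, 3 and 4 times in the other group. COX7AL followed with 3, 1 and 0 against 6, 4 and 2. UQCR-11L, with 11 UMIs, lies on the same strand inside Acsl (443 shared bases), and ATPsynCF6L, with 3 UMIs, inside Con, so their counts could belong to the host genes. The rest were ND-20L, ND-24L, ND-49L, COX4L, COX5BL, ATPsynGL and ATPsynbetaL, which had 1 to 7 UMIs each. The chain in these cells was therefore counted almost entirely from the first-named genes.

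All 4 members of complex II had a positive log2 fold change, with a median of 0.52, and SdhB alone passed. SdhB (FBgn0014028, chromosome 2R, 6807626 to 6809172, plus strand) had 65.7, 40.3 and 53.9 CPM in control replicates 1, 2 and 3 and 141, 112 and 164 CPM in the other group. Every library labelled Pex5-depleted lay above every control, with means of 53.3 ± 12.7 and 139 ± 25.7 CPM (SD, n = 3 each). On the log2 scale this was a difference of 1.38 (SE 0.24) with 95% limits of 0.88 and 1.88, and the Benjamini-Hochberg adjusted p from edgeR was 0.00938. Leaving out each library in turn kept it between 1.19 and 1.55, and the call was lost only without the replicate labelled Pex5-depleted 3 (log2 fold change 1.22, edgeR adjusted p 0.0610). SdhB ends in a stretch of 129 bases shared with CG15237 on the opposite strand. CG15237 was counted 31, 167 and 138 times against 50, 180 and 20 times, with overlapping groups and a log2 fold change of -0.67 (SE 0.59), and whether counting used strand is not given in the sources used here.

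SdhC and SdhD anchor the enzyme in the inner membrane. SdhC (FBgn0037873) had 266, 213 and 265 CPM in the controls and 231, 255 and 309 CPM in the other group, so the groups overlapped. Its log2 fold change was 0.10 (SE 0.18), with a Benjamini-Hochberg adjusted p of 0.876 by edgeR. SdhD (FBgn0039112) had 98.5, 92.5 and 124 CPM against 192, 106 and 211 CPM. Replicates labelled Pex5-depleted 1 and 3 were above every control and replicate 2 was within their range, which gave a log2 fold change of 0.69 (SE 0.24) with 95% limits of 0.17 and 1.21 and an edgeR adjusted p of 0.217. SdhD shares 124 bases near its 3' end with PTPMT1 on the opposite strand, whose log2 fold change was -0.12. SdhA, the flavoprotein that oxidises succinate, had 39.4, 71.0 and 48.6 CPM against 92.9, 56.5 and 53.3 CPM, with overlapping groups. Its log2 fold change was 0.35 (SE 0.29, edgeR adjusted p 0.667).

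The balance among the transcripts of complex II can be read within each library, where scaling cancels. For every 100 UMIs of SdhC there were 24.7, 18.9 and 20.4 UMIs of SdhB in control libraries, against 61.2, 44.0 and 53.0. The ratio was thus higher in all 3 libraries labelled Pex5-depleted, at 52.7 ± 8.59 against 21.3 ± 3.03 (SD, n = 3 each). SdhD gave 37.1, 43.4 and 46.9 UMIs per 100 of SdhC against 83.0, 41.7 and 68.4, which overlap. SdhA gave 14.8, 33.3 and 18.4 against 40.3, 22.1 and 17.3, also with overlap. A ratio of this kind shows unequal change between 2 transcripts and not which of them moved.

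**Figure D2:**
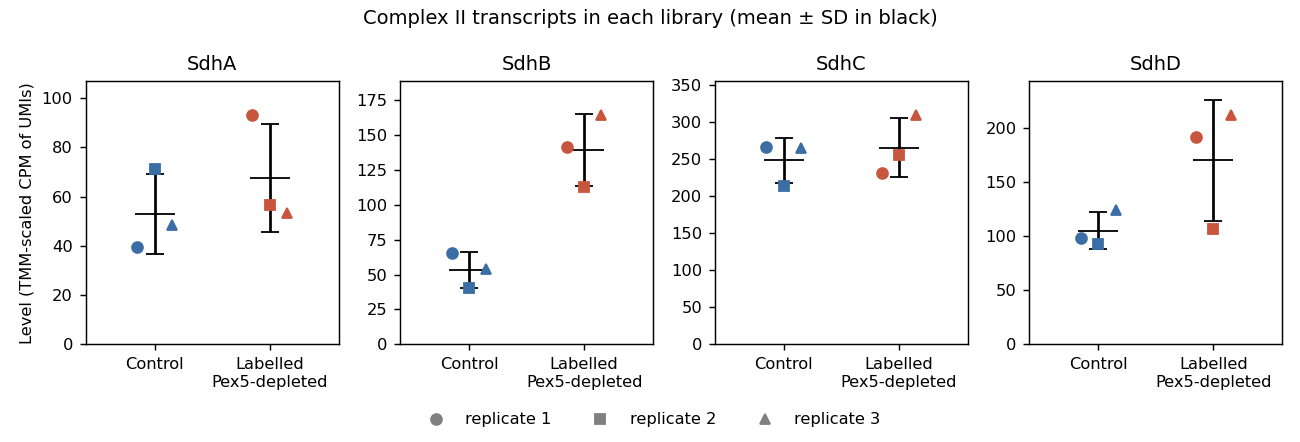
Level in TMM-scaled CPM of UMIs of the 4 complex II transcripts in each library, with mean and SD of 3 replicates in black. SdhB separates the groups, 40.3 to 65.7 CPM against 112 to 164 CPM, while SdhA, SdhC and SdhD overlap.

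Complex I showed no called member among its 33 tested genes, with a median log2 fold change of -0.03. ND-75, an iron-sulfur protein of the NADH-oxidising arm, had the highest value. It was counted 141, 82 and 82 times in the controls and 156, 394 and 116 times in the other group, which is 38.3, 28.0 and 21.9 CPM against 56.6, 82.8 and 39.6 CPM. The groups did not overlap, although control replicate 1 and the replicate labelled Pex5-depleted 3 were close. The difference was 1.03 on the log2 scale (SE 0.31) with 95% limits of 0.36 and 1.69, and the adjusted p from edgeR was 0.142. Once the replicate labelled Pex5-depleted 2 was left out, it was 0.71 (edgeR adjusted p 0.479). Its partners in the same arm lay nearer to 0, a difference that was not tested. ND-51, which holds the flavin that accepts electrons from NADH, had a log2 fold change of 0.25 (SE 0.24), and ND-24, its iron-sulfur partner, had -0.35 (SE 0.17). For every 100 UMIs of ND-51 there were 61.3, 27.9 and 30.1 of ND-75 in control libraries, against 71.9, 97.3 and 34.5, which overlap. ND-24 gave 760, 363 and 609 UMIs per 100 of ND-51 against 382, 424 and 296, also with overlap. ND-24 was at 475, 364 and 442 CPM against 301, 361 and 339 CPM, every library labelled Pex5-depleted being below every control. Among the subunits that lead electrons to ubiquinone, ND-49 had -0.33, ND-30 0.14, ND-23 -0.19 and ND-20 -0.03. ND-49 was at 48.6, 44.7 and 50.2 CPM against 42.5, 28.8 and 43.7 CPM, lower in each library, at an SE of 0.26.

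The accessory subunits of complex I, which surround this core, had values on both sides of 0. ND-ACP, the mitochondrial acyl carrier protein, was at 1052, 770 and 806 CPM in the controls and 706, 728 and 717 CPM in the other group, a log2 fold change of -0.29 (SE 0.16). The small membrane-arm subunit ND-MNLL was at 89.3, 92.5 and 82.2 CPM against 73.3, 69.3 and 71.8 CPM, or -0.30 (SE 0.20). Both were lower in each library labelled Pex5-depleted. ND-B14.5B had 153, 172 and 162 CPM against 184, 198 and 212 CPM, and ND-B17 had 189, 204 and 189 CPM against 213, 213 and 300.1 CPM, with log2 fold changes of 0.29 and 0.32. Both of these were higher in each library labelled Pex5-depleted, and none of these accessory transcripts passed the test. Of the 33 tested members of complex I, 3 were higher and 4 lower without overlap. Over all tested genes the shares were 9.72% and 9.45%. The most abundant, ND-PDSW, was at 943, 881 and 808 CPM against 768, 793 and 930 CPM, with overlapping groups.

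Of the 66 members, 15 had groups that did not overlap (22.7%), beside 19.2% of all tested genes. Of these, 11 were lower (16.7%, against 9.45% of all genes) and 4 were higher (6.06%, against 9.72%). The 4 higher were SdhB, ND-75, ND-B14.5B and ND-B17. The 11 lower were ND-24, ND-49, ND-ACP and ND-MNLL of complex I, Cyt-c1 and UQCR-14 of complex III, Cyt-c-p, COX6B of complex IV, and ATPsynC, ATPsynO and ATPsynbeta of complex V. None of these 11 passed the test, so they are given as an order of values and not as changes.

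**Figure D3:**
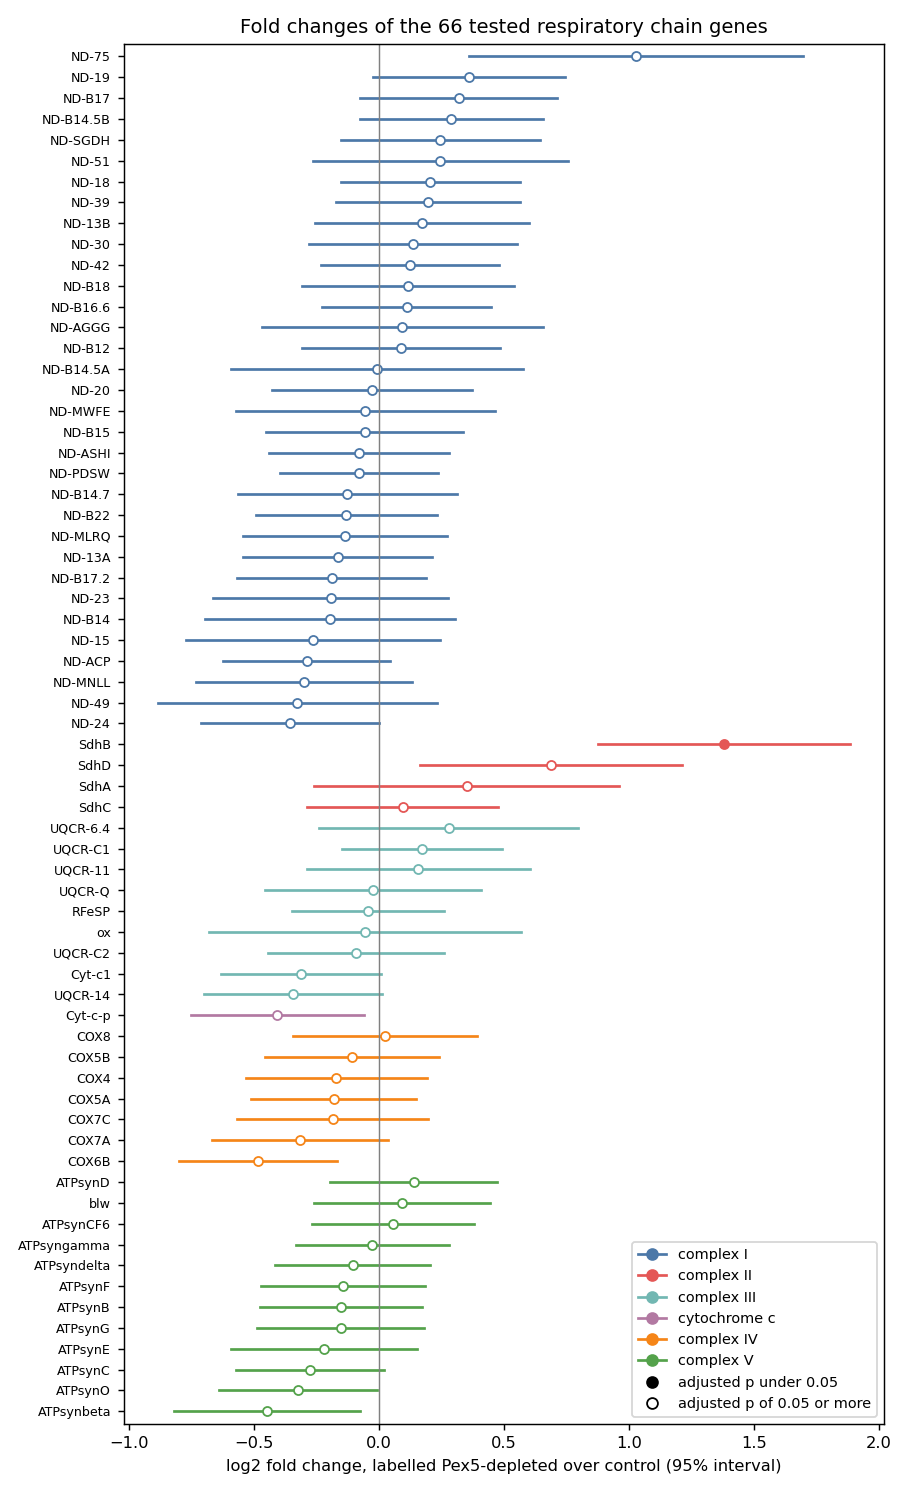
Log2 fold change (labelled Pex5-depleted over control) with 95% interval for each of the 66 tested members, grouped by complex. SdhB lies at 1.38 with its interval above 0 and is the member called, and the other values run from -0.48 for COX6B to 1.03 for ND-75.

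In complex III, Cyt-c1, the haem protein that hands electrons to cytochrome c, had 618, 595 and 631 CPM against 533, 507 and 447 CPM. UQCR-14 had 311, 282 and 333 CPM against 264, 214 and 252 CPM. Both lay lower in every library labelled Pex5-depleted, with log2 fold changes of -0.31 and -0.34. All of UQCR-14 (701 bases, 5706 UMIs) lies within CG32576 on the opposite strand. CG32576 had 523 UMIs and a log2 fold change of -0.32 (SE 0.34) with overlapping groups. RFeSP, the Rieske iron-sulfur protein, had a log2 fold change of -0.04 and the core protein UQCR-C1 one of 0.17, both with overlapping groups, and UQCR-6.4 one of 0.28. Cyt-c-p, the carrier between complexes III and IV, had 856, 664 and 652 CPM against 569, 487 and 584 CPM. This gave a log2 fold change of -0.41 (SE 0.16) with 95% limits of -0.75 and -0.058, and an edgeR adjusted p of 0.290.

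Complex IV had 7 tested members, of which 6 had negative values and none passed. COX6B, a small subunit on the intermembrane side, had 1148, 1029 and 1073 CPM against 683, 772 and 871 CPM. It was lower in every library labelled Pex5-depleted, with a log2 fold change of -0.48 (SE 0.15), 95% limits of -0.80 and -0.17, and an edgeR adjusted p of 0.144. It passed under 3 of the 14 alternatives, as given with the processing. COX7A had -0.31, and the regulatory subunits COX4, COX5A and COX5B had -0.17, -0.18 and -0.11, with overlapping groups in all 4. COX8 was at 0.03 and changed sign with the scaling.

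In complex V, ATPsynbeta, the catalytic subunit that makes ATP, had 753, 927 and 946 CPM against 691, 499 and 740 CPM. The groups did not overlap, and the log2 fold change was -0.45 (SE 0.17), with an edgeR adjusted p of 0.273. ATPsynbeta shares 274 bases near its 5' end with CG11076 on the opposite strand, which was lower (log2 fold change -0.93, SE 0.22, edgeR adjusted p 0.0458). The alpha subunit blw, which pairs with it in the catalytic head, was at 0.09 with overlapping groups. For every 100 UMIs of blw there were 174, 163 and 226 of ATPsynbeta in control libraries, against 136, 97.1 and 150, all lower. ATPsynC gave 989, 778 and 761 UMIs per 100 of ATPsynbeta against 822, 1059 and 959, which overlap. The rotor subunit ATPsyngamma had -0.03 and changed sign when single libraries were left out. In the stalk that holds the head still, ATPsynO was at 1154, 1044 and 975 CPM against 749, 886 and 899 CPM, a log2 fold change of -0.32 (SE 0.15), while ATPsynD had 0.14 with overlapping groups. ATPsynC had 7450, 7212 and 7197 CPM against 5682, 5285 and 7093 CPM, with a log2 fold change of -0.28 (SE 0.14), and its replicate labelled Pex5-depleted 3 lay close to the controls.

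**Figure D4:**
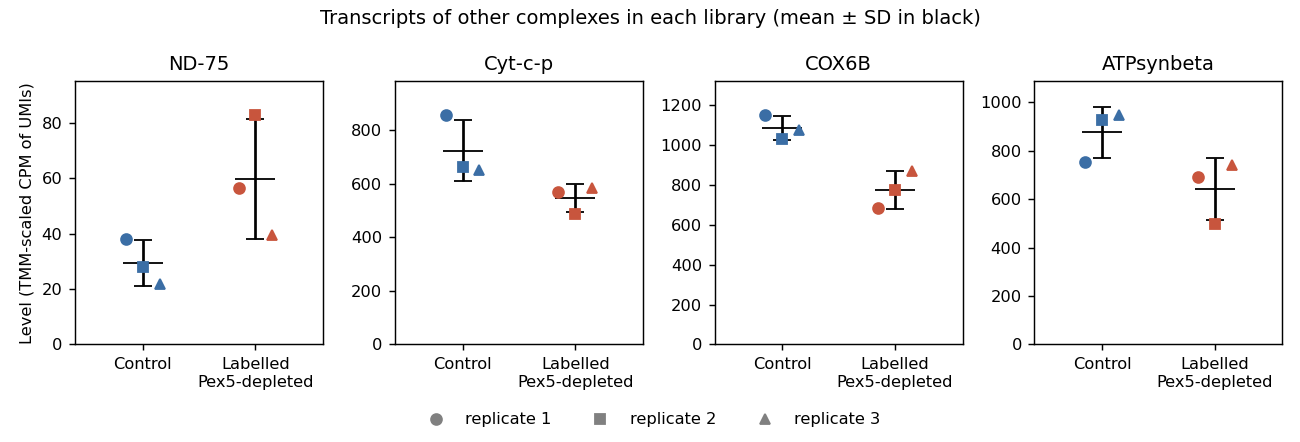
Level in TMM-scaled CPM of UMIs of ND-75, Cyt-c-p, COX6B and ATPsynbeta in each library, with mean and SD of 3 replicates in black. In each panel the groups do not overlap and none passes the test, with adjusted p of 0.142 for ND-75, 0.290 for Cyt-c-p, 0.144 for COX6B and 0.273 for ATPsynbeta.

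Summed over members, complex II was at 469, 417 and 491 CPM in the controls and 657, 531 and 737 CPM in the other group, a ratio of means of 1.40 without overlap. SdhB, the called gene, is part of this sum, and the other 3 members each had overlapping groups. Complex IV was at 5353, 4790 and 4741 CPM against 3753, 3971 and 4721 CPM, a ratio of 0.836, the groups separated by little. Complex III was at 3168, 2950 and 2991 CPM against 2944, 2897 and 2861 CPM, a ratio of 0.955, also without overlap but with its nearest libraries almost level. Its shares of raw UMIs, 0.330%, 0.287% and 0.316% against 0.315%, 0.288% and 0.252%, did overlap, so its separation depended on the scaling. Complex I had a ratio of 0.982 and complex V one of 0.871, both with overlap. In complex V the overlap was slight, with the replicate labelled Pex5-depleted 3 at 14563 CPM and the lowest control at 14561 CPM. The complex V shares of raw UMIs, 1.62%, 1.45% and 1.54% against 1.33%, 1.22% and 1.28%, did not overlap. All members together were at 33072, 30943 and 30536 CPM against 26932, 27357 and 31236 CPM, a ratio of 0.905, with overlap. As a share of raw UMIs they took 3.44%, 3.01% and 3.22% against 2.88%, 2.72% and 2.75%, without overlap, so this comparison depended on the scaling. These sums are descriptions and were not tested.

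**Figure D5:**
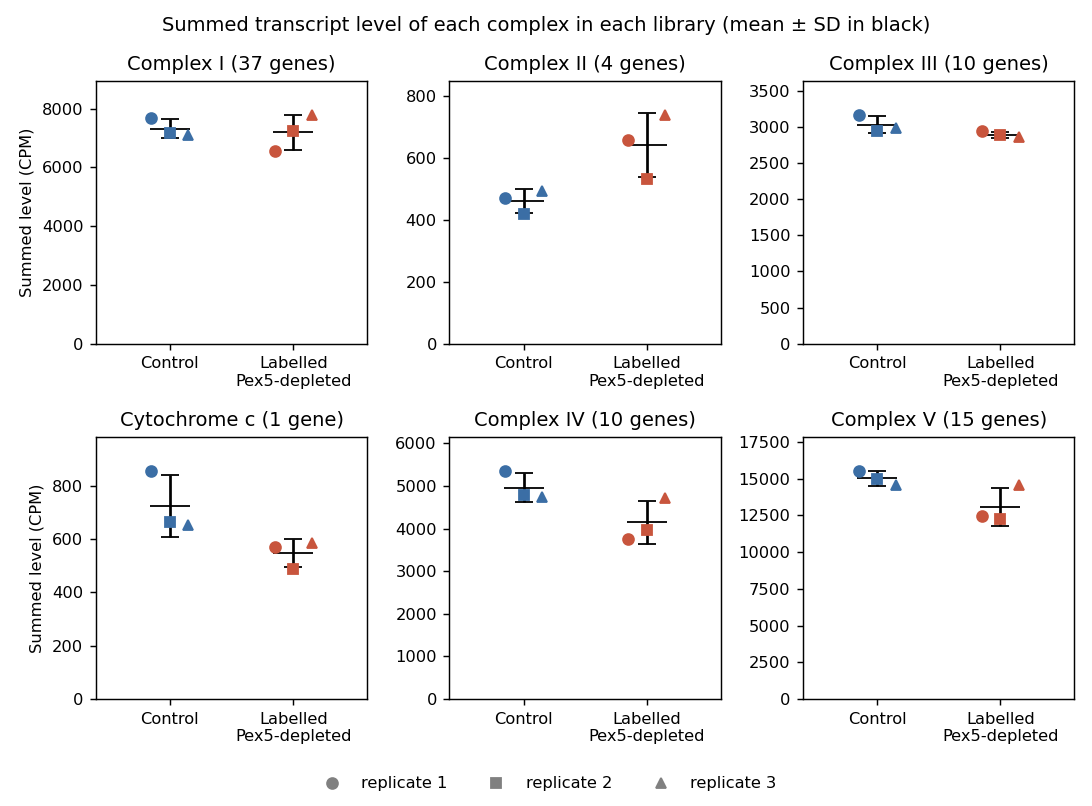
Summed level in TMM-scaled CPM of the members of each complex in each library, with mean and SD of 3 replicates in black. Complex II lies higher (417 to 491 against 531 to 737 CPM) and complex IV lower (4741 to 5353 against 3753 to 4721 CPM) in the libraries labelled Pex5-depleted. The complex II sum includes SdhB, its only member whose groups do not overlap.

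The subunits encoded in the mitochondrial genome can be set beside their nuclear partners. Their sums in complex I were 2055, 2537 and 1483 CPM against 2500, 2637 and 3130 CPM, and in complex IV 5244, 10067 and 5464 CPM against 8869, 7939 and 10058 CPM. The groups overlapped in both, as they did in complexes III and V. The 26 tested transcripts of the mitochondrial genome include ribosomal and transfer RNAs beside those of subunits. Of the 26, 1 was called, mt:tRNA:Leu-TAG, which was higher, beside 93 of 5639 genes (1.65%). Their median log2 fold change was 0.45, while that of the 66 nuclear members was -0.06. The transcripts of subunits alone ran from -0.23 for mt:ND4L to 0.64 for mt:ND3, so these medians are of unlike sets. The median over all tested genes was 0.03.

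None of the tested genes on the lists of partners of the chain passed the test. Subunits under other names, levy and cype of complex IV and sun of complex V, had log2 fold changes of -0.01, -0.10 and -0.13, and none of the 3 passed. Of 16 tested citrate cycle and pyruvate dehydrogenase genes 0 passed, with a median of -0.0080 and a highest value of 0.47. Assembly factors had 0 of 14 called and a median of 0.11, and Surf1, which helps build complex IV, had the highest value (1.72, SE 0.67, edgeR adjusted p 0.268) at 1.02 to 4.62 CPM against 7.52 to 13.2 CPM. Carriers and channels had 0 of 9 called and a median of -0.30. Among them Mpc1, a subunit of the mitochondrial pyruvate carrier, was at 40.4, 35.8 and 44.6 CPM in the controls and 15.6, 27.1 and 22.6 CPM in the other group, without overlap. Its log2 fold change of -0.88 (SE 0.30, edgeR adjusted p 0.204) was the lowest of that list. The outer membrane channel porin, also without overlap, had -0.39 (SE 0.14, edgeR adjusted p 0.224), and sesB, the ADP/ATP carrier, had -0.17 with overlap. Regulators of mitochondrial gene expression had 0 of 6 called and a median of -0.06.

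In position, the members were spread over the genome, with 15 on chromosome 2L, 15 on 2R, 17 on 3L, 16 on 3R, 2 on 4 and 12 on X. Their transcripts were short, with a median length of 836 bases against 1754 for all tested genes. Of the 77, 42 overlap another annotated gene. In 25 a protein-coding gene on the opposite strand overlaps the last 500 bases before the 3' end, where the counted tags lie. SdhA, SdhB and SdhD are among these 25. Genes that lie past the 3' end without overlap were not counted.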

How the data were processed

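The authors deposited UMI counts per gene and well index, made with the QIAseq UPX 3' kit, per the labels. Tools in the submitters' processing notes are HISAT2, StringTie and DESeq2, with build dm6 and no roles given. The table's 29 columns of other well indexes were not used, and 6 spike-in rows holding 7 UMIs (3.37e-05%) were left out. A second table deposited by the authors holds a signed fold score per gene without naming what was compared, and it is used only under the other observations. Coordinates are those of the count table and equal Ensembl release 115 for all 77 members.

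Counts as deposited were tested with edgeR 4.0.16 in R 4.3.3 (quasi-likelihood F test, TMM factors, expression filter with a minimum count of 10, no covariate), with Benjamini-Hochberg adjustment over 5639 genes and a threshold of 0.05. A positive log2 fold change means higher in the libraries labelled Pex5-depleted. SE is the log2 fold change divided by the square root of F. The labels call the 3 replicates a group biological, and p-values measure the spread between them. No 2 replicates agreed within sampling noise (chi-square over its degrees of freedom 10.3 to 16.3). Alternatives were other normalizations and filters, a table without mitochondrial and ribosomal protein genes, DESeq2 1.42.0, limma-voom (limma 3.58.1), a replicate block, and leaving out each library.

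The members and gene lists were chosen with earlier results of these data known. Genes named are those called, in each complex the 2 most abundant and the highest and lowest log2 fold change, the catalytic subunits, and the second copies. ND-MNLL, ND-B14.5B, ND-B17, ATPsynO and the genes outside the members were named after their values were seen.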

Additional observations from a re-analysis of the deposited data

How the results depend on the processing

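The number of members called was 1, and it was 2 with no composition factor, with no filter on low counts and with DESeq2, where COX6B also passed (adjusted p 0.0396, 0.0427 and 0.0157). It was 0 to 1 when each library was left out, the 0 coming without the replicate labelled Pex5-depleted 3, where SdhB had an edgeR adjusted p of 0.0610. SdhB was called in 14 of 15 settings. Over all genes the number called was 93, against 197 with no filter, 207 with DESeq2, 58 with the replicate block, and 17 to 80 when each library was left out (17, 44, 34, 32 and 28 without control 1, control 3 and Pex5-depleted 1, 2 and 3). Same-numbered libraries did not deviate together (correlations of -0.01, -0.05 and 0.01), so the numbers were not taken to pair them; with the replicate block 1 member was called, SdhB (1.39). The median log2 fold change of complex III was -0.04, and -0.10 with no composition factor, -0.11 with no filter and -0.091 to 0.030 when each library was left out; its summed level in the libraries labelled Pex5-depleted was 2901 CPM, and 2849 CPM with no composition factor. The sign reversed under at least 1 alternative in 17 of the 66 tested members, none of them over 0.16 in size, and in 5 of the 30 chosen by the naming rule. COX8 was -0.041 with no composition factor and -0.037 with no filter, and ND-20 was 0.0076 with limma-voom. When each library was left out, the log2 fold change ran from -0.11 to 0.039 for ATPsyngamma, from -0.084 to 0.081 for COX8, from -0.15 to 0.15 for ND-20, from -0.0035 to 0.30 for ND-30 and from -0.051 to 0.18 for SdhC. The cause was not tested.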

Other observations

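The authors' deposited table of fold changes gave every one of the 66 tested members a score below 0, from -12.5 to -1.45, with a median of -8.39. SdhB was at -6.82 there. Of all tested genes in that deposited table, 4144 of 5424 were below 0, with a median of -2.62. Across genes, which are not independent replicates, the deposited score had a Spearman correlation of 0.0843 with the log2 fold change from the UMI counts and of 0.733 with transcript length. Which groups that table compares is not stated in it, and its values were used for no result above.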
